A study of Mus musculus with 7 samples.

Results

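Immediate early genes are the genes that neurons transcribe within minutes of synaptic activity, before any new protein has to be made. Here 40 genes listed as activity-induced immediate early genes were followed in RNA sequencing of the prefrontal cortex of adult mice. They were listed by symbol, with no measured value in the rule. All 40 were found by their mouse gene identifiers among the 43626 identifiers of the table, each with 1 identifier, and all 40 passed the filter on low values and were tested. The study concerned phosphorylation of DISC1, a scaffold protein of neurons, and the polarity of cortical neurons. It compared mice carrying the allele labelled hDISC1AA/+ (4 libraries) with wild-type mice, labelled WT (3 libraries). All animals were male C57BL/6J mice aged 8 weeks, and nothing in the labels mentions a treatment, a task or a stimulus before the tissue was taken. How the allele was made, what drives it and whether each library came from a separate mouse are not given in the labels, so the p-values measure the spread between these libraries, which may in part be technical.

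When an excitatory neuron fires, calcium enters through NMDA receptors and voltage-gated channels. Calmodulin-dependent kinases and the RAS-ERK cascade then activate transcription factors that already sit on the promoters of these genes, chiefly CREB, which binds the cyclic AMP response element, and the serum response factor with its partners, which bind the CArG box. The products fall into 4 roles: AP-1 and other basic leucine zipper factors (9 genes here), other transcription regulators (10), synaptic, secreted and kinase products (9), and feedback and growth control (12). Many of the mRNAs are short-lived, and the level of those in tissue can report recent activity, and also handling, arousal and the time to dissection. This need not hold for each of the listed genes. In bulk tissue, fewer cells that express a gene and less of its RNA per cell cannot be told apart.

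The promoters of these genes were read for 4 motifs, among them those that CREB and the serum response factor recognise. RefSeq windows (GRCm38.p6, the mm10 assembly) of 250 bases before the transcription start were found for 30 of the 40 genes, 38 windows in all since a gene can have several starts. The 10 genes without a window, Arc, Egr1, Egr3, Ier2, Dusp4, Crem, Nptx2, Vgf, Trib1 and Spry4, were not searched. The full cyclic AMP response element, TGACGTCA, stood in 5 of the 38 windows (13.2%), 1 each in Scg2, Btg2, Plk2, Maff and Dusp1, against 1.55% of all 32851 RefSeq windows of that length. Its half-site, TGACG or CGTCA (which every full element also holds), stood in 22 of 38 windows (57.9%) and 19 of 30 genes, against 17.8% of all windows. The CArG box stood in 5 of 38 windows (13.2%), against 1.47% of all windows, but in only 2 of 30 genes (6.67%), Egr2 and Dusp5. Overlapping windows of Egr2 hold the same box, which is then counted more than once. The AP-1 motif TGANTCA stood in 0 of 38 windows, against 6.75% of all windows. Both strands were read, windows of 1 gene can overlap, and a match is a description of letters and not of a bound site. RefSeq starts can differ from the annotated start of the gene, so a window need not lie before the gene. All 250 bases of the Fosl2, Rheb and Npas4 windows are annotated exon on the same strand, and the RefSeq start of Jund lies upstream of the annotated gene. Such windows stayed in the counts. 6 windows are shown: 4 of the genes described most closely here that hold the element or its half-site in a window free of exons, and those of Inhba and Ptgs2, which hold none of the 4 motifs and were among the genes with the widest spread. Capitals mark the full element and its half-sites.
Fos, chr12:85473640-85473889, plus strand: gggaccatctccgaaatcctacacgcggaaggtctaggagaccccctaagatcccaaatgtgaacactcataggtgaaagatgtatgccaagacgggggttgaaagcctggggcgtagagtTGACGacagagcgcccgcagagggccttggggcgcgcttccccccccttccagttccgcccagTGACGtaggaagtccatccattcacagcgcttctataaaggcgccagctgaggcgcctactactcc
Btg2, chr1:134079156-134079405, minus strand: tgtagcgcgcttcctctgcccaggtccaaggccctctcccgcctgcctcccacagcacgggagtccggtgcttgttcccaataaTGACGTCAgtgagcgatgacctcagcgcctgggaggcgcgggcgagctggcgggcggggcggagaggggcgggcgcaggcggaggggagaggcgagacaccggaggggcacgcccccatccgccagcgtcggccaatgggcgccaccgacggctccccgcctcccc
Nr4a1, chr15:101266596-101266845, plus strand: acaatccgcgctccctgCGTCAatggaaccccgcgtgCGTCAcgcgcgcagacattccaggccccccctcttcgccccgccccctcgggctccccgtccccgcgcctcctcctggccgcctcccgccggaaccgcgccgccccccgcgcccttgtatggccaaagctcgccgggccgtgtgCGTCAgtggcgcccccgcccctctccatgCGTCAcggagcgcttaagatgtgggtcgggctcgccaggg
Egr4, chr6:85513590-85513839, minus strand: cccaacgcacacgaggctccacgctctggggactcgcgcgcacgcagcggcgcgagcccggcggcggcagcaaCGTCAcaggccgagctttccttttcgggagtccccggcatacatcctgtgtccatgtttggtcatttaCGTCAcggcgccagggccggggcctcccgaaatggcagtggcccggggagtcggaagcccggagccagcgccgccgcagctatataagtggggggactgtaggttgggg
Inhba, chr13:16011601-16011850, plus strand: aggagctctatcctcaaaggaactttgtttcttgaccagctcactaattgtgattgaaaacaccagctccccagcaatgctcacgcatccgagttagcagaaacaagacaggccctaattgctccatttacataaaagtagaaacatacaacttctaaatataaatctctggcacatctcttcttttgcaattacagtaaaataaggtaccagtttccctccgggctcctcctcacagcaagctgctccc
Ptgs2, chr1:150099781-150100030, plus strand: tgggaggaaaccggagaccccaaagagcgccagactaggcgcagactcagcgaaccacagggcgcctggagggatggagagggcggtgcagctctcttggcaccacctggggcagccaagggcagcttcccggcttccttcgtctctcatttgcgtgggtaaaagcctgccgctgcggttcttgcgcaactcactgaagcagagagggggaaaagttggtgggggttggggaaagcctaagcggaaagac
In the Fos window the half-sites lay 129 to 125 and 66 to 62 bases before the start, and in the Btg2 window the full element lay 166 to 159 bases before it. The Nr4a1 window precedes the RefSeq start, which lies 12577 bases inside the annotated gene. That the windows of Inhba and Ptgs2 do not hold the letters searched says nothing about positions outside these 250 bases.

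The authors deposited reads divided by 1 size factor per library, and "normalized count" below means that value. The libraries held 33512557 to 36005116 reads assigned to genes, except WT replicate 1 with 63845254. Replicates 1, 3 and 4 of hDISC1AA/+ and 1 to 3 of WT carry titles from the labels. The fourth hDISC1AA/+ column bears a number that matches none of the titles, and its genotype was read from the ending of its column name. Below it is the unnumbered library. Over all genes, WT replicate 1 stood apart on the first principal component (38.7% of variance) and hDISC1AA/+ replicate 1 on the second (31%). In that hDISC1AA/+ library mitochondrial genes took 1.94% of reads, against 5.14% to 6.94% in the other 6, and GC content and length of genes accounted for 0.375 of the variance of its deviations, against 0.124 or less in the others. WT replicate 1 also differs from the other 6 columns in how its name is written; the labels give no reason, and whether it was made in another batch cannot be told. Disc1 itself had 60.3, 81.0, 80.2 and 85.4 normalized counts in hDISC1AA/+, against 46.9, 72.0 and 109 in WT (log2 difference 0.08, limma adjusted p = 0.998), a count that does not show whether an amino acid was exchanged. Below, hDISC1AA/+ values are in the order replicate 1, unnumbered, replicate 3 and replicate 4, and WT values in the order replicates 1, 2 and 3.

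Between the genotypes, 30 of the 40 immediate early genes had a lower mean log2 level in hDISC1AA/+ than in WT and 10 a higher one, but none passed the test. The share with a fold change below 0 was 75%, against 52.2% of the 17670 genes tested. The median log2 fold change, as hDISC1AA/+ minus WT on the log2(normalized count + 1) scale, was -0.15 over the 40 genes and -0.0092 over all genes tested. Single values ran from -0.52 for Inhba to 0.27 for Klf4. With limma and Benjamini-Hochberg adjustment 0 of 40 genes passed an adjusted p of 0.05 (adjusted p 0.974 to 1.0), as did 0% of all genes tested. An unadjusted p under 0.05 was reached by 3 of 40, Dusp4, Crem and Dusp6, all lower in hDISC1AA/+, against 2.44% of all genes in either direction and 1.3% of all genes in the lower one. edgeR's quasi-likelihood test on the recovered reads likewise gave 0 adjusted and 3 unadjusted calls among the 40 (2.58% of all genes it tested were unadjusted calls). DESeq2 gave 0 and 5 (2.13% of all genes it tested). All hDISC1AA/+ values lay below all WT values for 2 genes, Dusp4 and Crem, against 2.84% of all genes tested, and for 0 genes they lay above, against 2.2% of all genes tested. For 29 of 40 genes (72.5%), against 77.4% of all genes tested, the 95% interval reached neither a doubling nor a halving; for the other 11 it did.

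The lower median rested on single libraries. Without WT replicate 1 the median was 0.03 and 19 of 40 genes were lower, and without the unnumbered hDISC1AA/+ library it was 0.04 and 18 were lower. Without any one of the other 5 libraries the median stayed between -0.26 and -0.15. With limma's weights per library it was 0.09 and 17 were lower. Those weights were 0.244, 0.942 and 5.232 for WT replicates 1, 2 and 3, so the weighted WT level rested mostly on WT replicate 3. In hDISC1AA/+ they were 0.279, 1.229, 1.745 and 1.39.

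**Figure D1:**
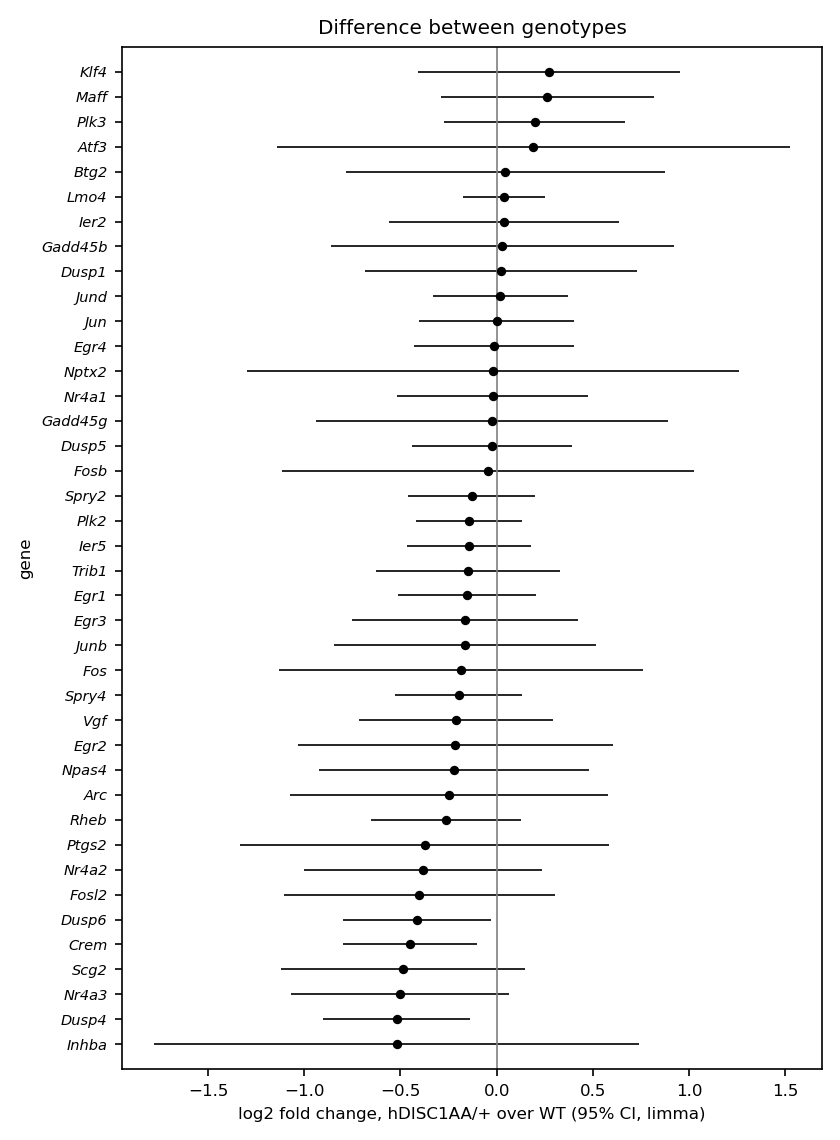
Log2 fold change (hDISC1AA/+ minus WT, on log2(normalized count + 1)) of the 40 immediate early genes, one point a gene, with its 95% interval of limma as a line. Of 40 points 30 lie below 0, and the intervals of Dusp4, Crem and Dusp6 are the ones that do not reach 0.

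Libraries of the same genotype differed widely in these genes. The SD of the log2 level within genotypes, pooled over both, had a median of 0.412 over the 40 genes, against 0.231 over all genes tested. For 38 of 40 genes it was above the median of the 500 tested genes nearest in mean level, with Maff (above 18.4% of them) and Lmo4 (above 19.8%) as the exceptions. For 21 of 40 it was larger than in at least 90% of those neighbours. The 13 canonical rapid genes (Fos, Fosb, Junb, Egr1 to Egr4, Arc, Npas4, Nr4a1, Ier2, Btg2 and Dusp1) had a median SD of 0.498, and 10 of the 13 reached that 90% mark. The spread was present in both genotypes: the median SD was 0.372 within hDISC1AA/+ (all genes 0.202) and 0.329 within WT (all genes 0.210). The SD was larger in hDISC1AA/+ than in WT for 27 of 40 genes (67.5%), against 48.2% of all genes tested, and for 12 of the 13 canonical genes. The unnumbered hDISC1AA/+ library was the lowest of all 7 for 12 of the 13 canonical genes, with a median deviation of -0.71. The part of that single library in the larger SD was not tested. The genes share their libraries, so these counts are not independent and carry no test.

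**Figure D2:**
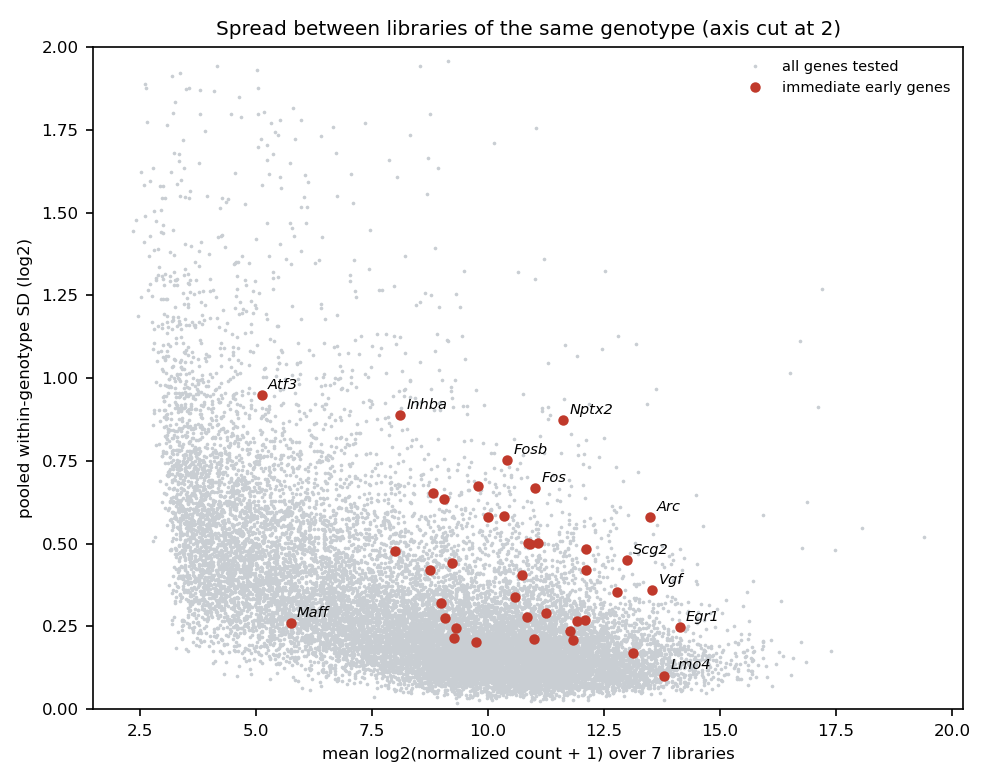
Pooled within-genotype SD (log2 scale) against mean level for every gene tested (grey) and for the 40 immediate early genes (red). Most red points lie in the upper part of the grey cloud at their level, Lmo4 and Maff in its lower part, and 35 grey genes with an SD above 2 fall outside the axis.

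Among the AP-1 and other basic leucine zipper genes, 6 of 9 were lower and 3 higher in hDISC1AA/+, with a median log2 fold change of -0.05 and a median SD of 0.485. Fos, which pairs with JUN proteins to form AP-1 and is a widely used marker of active neurons, lies on chromosome 12 (85473890 to 85477273, plus strand, GRCm38). It had 1522, 1120.1, 2415 and 3661 normalized counts in hDISC1AA/+, against 3269, 2162 and 1593 in WT. The highest and the lowest library of all 7 were both hDISC1AA/+, replicate 4 and the unnumbered library, and the genotypes overlapped over most of their range. The means were 2179.7 ± 1126 in hDISC1AA/+ and 2341 ± 852 in WT (SD, n = 4 and 3), and the log2 fold change was -0.19 (95% interval -1.13 to 0.76) with a limma adjusted p of 0.993. Fosb, whose truncated product accumulates with repeated activity, had 891, 866, 2446 and 1745 normalized counts in hDISC1AA/+, against 2518, 1197 and 891 in WT. Its values fell into a high set (hDISC1AA/+ replicates 3 and 4 and WT replicate 1) and a low one that held the other libraries of both genotypes, and its log2 fold change was -0.05 (95% interval -1.12 to 1.02). Junb, the AP-1 partner that restrains JUN, had 4685, 2507, 5107 and 5139.6 normalized counts in hDISC1AA/+, against 6806, 4018 and 3796 in WT. The unnumbered library was lowest and WT replicate 1 highest, and the other 5 libraries lay between 3796 and 5139.6. Exons of Junb overlap those of Prdx2 on the opposite strand, and the library kit is not described as marking strand, so their reads cannot be told apart.

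Atf3, a stress-responsive repressor, was among the least abundant of the 40 per length and had the widest spread, with an SD of 0.949. It had 16.9, 24.9, 46.6 and 84.4 normalized counts in hDISC1AA/+, against 64.8, 21.8 and 21.8 in WT, from 16 to 101 reads per library. Within hDISC1AA/+ replicate 4 was 4.98 times replicate 1. Crem encodes a relative of CREB and, from an internal promoter, the inducible repressor ICER, which the gene's count does not separate. It lies on chromosome 18 (3266048 to 3337748, minus strand, GRCm38) and had 454, 531, 619.6 and 578 normalized counts in hDISC1AA/+, against 899.8, 688 and 660.4 in WT. All hDISC1AA/+ libraries were below all WT libraries, with WT replicate 1 the highest. The means were 546 ± 71.1 in hDISC1AA/+ and 749 ± 131 in WT (SD, n = 4 and 3), and the log2 fold change was -0.45 (95% interval -0.80 to -0.10), with a limma unadjusted p of 0.0167 and adjusted p of 0.974. The exact permutation test, two-sided, gave 0.0286, the smallest p that the 35 divisions of 7 libraries allow. Without WT replicate 1 its log2 fold change was -0.31 with an unadjusted p of 0.0595, and without that library and hDISC1AA/+ replicate 1 together -0.23 with 0.0678. An exon of the transcript Gm6225 overlaps it on the opposite strand. Fosl2, Jun, Jund and Maff, further AP-1 or small MAF factors, had log2 fold changes from -0.40 for Fosl2 to 0.26 for Maff and unadjusted p of 0.225 or more. Jun and Jund overlap antisense genes.

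Of the other transcription regulators, 8 of 10 were lower and 2 higher in hDISC1AA/+ (median log2 fold change -0.16, median SD 0.412). Egr1, a zinc finger factor with high basal expression in cortex, lies on chromosome 18 (34859823 to 34864984, plus strand, GRCm38) and had 19511, 13565, 20998 and 15618 normalized counts in hDISC1AA/+, against 16951, 21254 and 19316 in WT. The unnumbered library was lowest, the genotypes overlapped, and replicate 1 was the lowest WT library. Its log2 fold change was -0.15 (95% interval -0.51 to 0.21). Egr2, its relative, had 819.7, 531, 1630.2 and 1195 normalized counts in hDISC1AA/+, against 1425, 1074 and 903 in WT, a 3.07-fold range within hDISC1AA/+. Egr3 had 4464, 3265, 6772 and 3216 normalized counts in hDISC1AA/+, against 5721, 4253 and 4346 in WT, with replicate 3 the highest of all 7 and replicate 4 the lowest. Egr4 had 3095, 1744, 2731 and 2370.2 normalized counts in hDISC1AA/+, against 2755, 2352 and 2284 in WT, with the unnumbered library the lowest and hDISC1AA/+ replicate 1 the highest of all 7. The log2 fold changes of Egr2, Egr3 and Egr4 were -0.21, -0.16 and -0.01, with limma adjusted p of 0.98 to 0.998.

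Npas4, a factor specific to neurons that calcium entry induces and that shapes inhibitory synapses, lies on chromosome 19 (4984355 to 4990316, minus strand, GRCm38). It had 1704, 1173, 1824 and 2828 normalized counts in hDISC1AA/+, against 2975, 1930.5 and 1591 in WT. Replicate 4 of hDISC1AA/+ and WT replicate 1 were close to each other at the top, and the unnumbered library was lowest. The log2 fold change was -0.22 (95% interval -0.92 to 0.48). Nr4a1, an orphan nuclear receptor, had 7341, 4771, 8428 and 7971 normalized counts in hDISC1AA/+, against 8968, 6889 and 5717 in WT, with a log2 fold change of -0.02 (95% interval -0.52 to 0.48). Its relative Nr4a3 had 1369.8, 1219.7, 1968 and 1406 normalized counts in hDISC1AA/+, against 3098, 1916 and 1514 in WT. WT replicate 1 was highest, WT replicate 2 and hDISC1AA/+ replicate 3 nearly coincided, and the genotypes overlapped. The log2 fold change of Nr4a3 was -0.50 (95% interval -1.07 to 0.06), with a limma unadjusted p of 0.0752 and adjusted p of 0.974, and without WT replicate 1 it was -0.22. Nr4a2, Klf4 and Lmo4 had log2 fold changes of -0.38, 0.27 and 0.04. Lmo4, a LIM-only cofactor expressed in cortical neurons, had the narrowest spread of the 40, 13035 to 15718 normalized counts and an SD of 0.101.

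**Figure D3:**
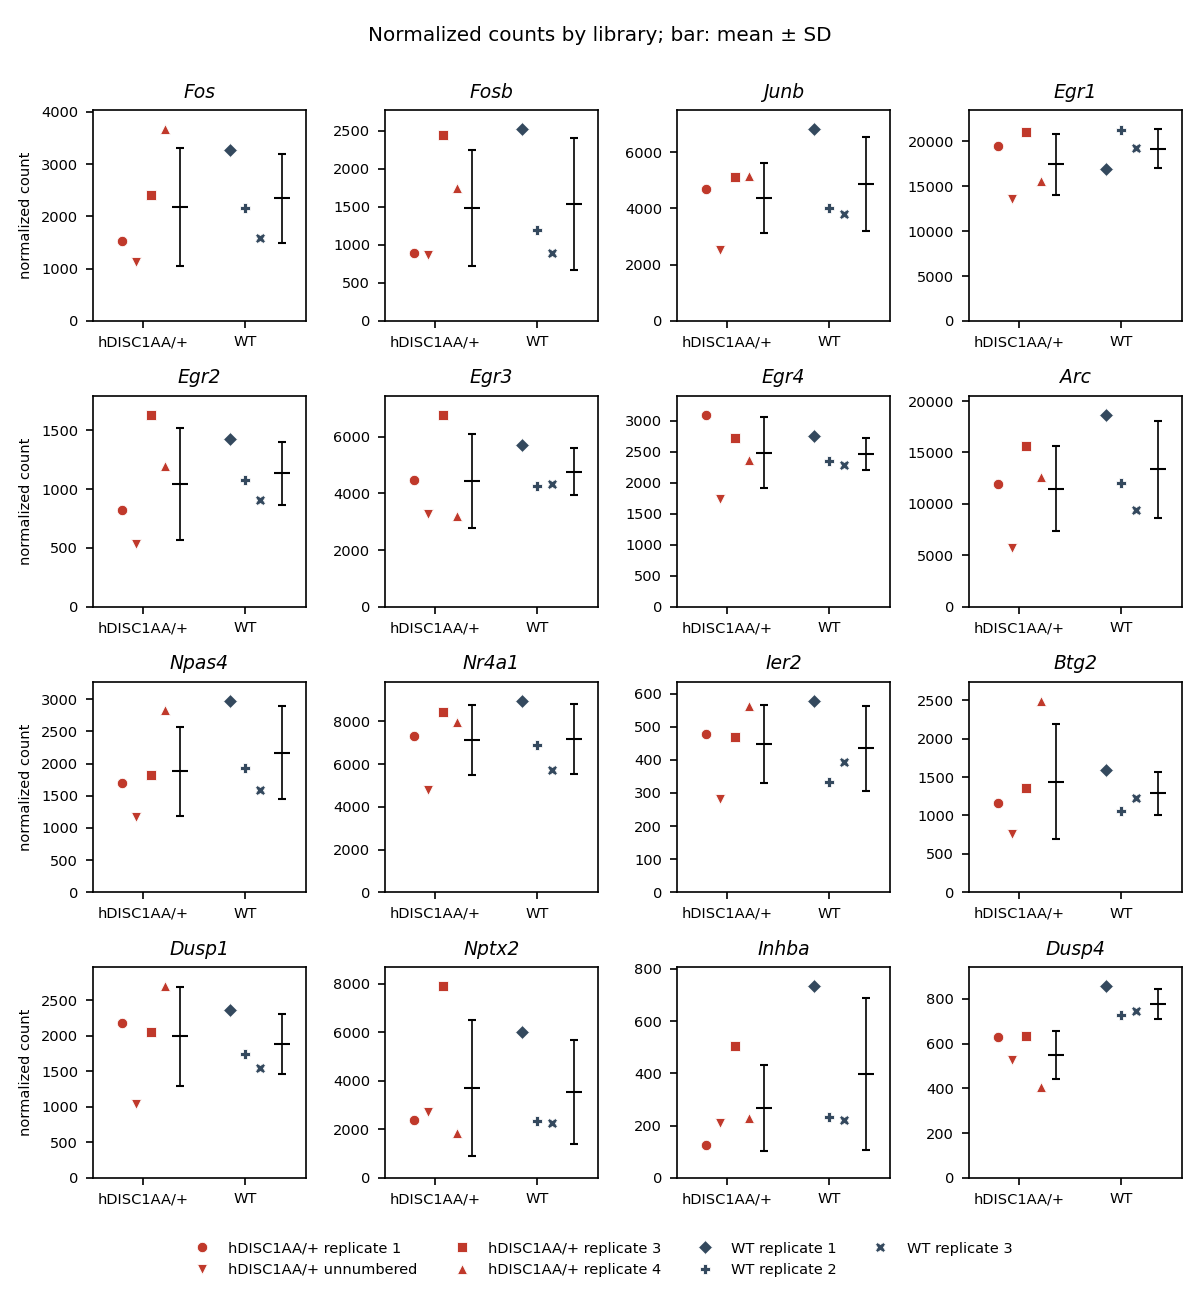
Normalized counts (linear axis from 0) in each hDISC1AA/+ and WT library for the 13 canonical rapid genes and for Nptx2, Inhba and Dusp4; points are libraries and bars the mean ± SD. The downward triangle (unnumbered hDISC1AA/+) is the lowest point for most canonical genes and the diamond (WT replicate 1) the highest WT point for all of them but Egr1, while the genotypes overlap in every panel except Dusp4.

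The synaptic, secreted and kinase products had the most negative median log2 fold change of the 4 roles, -0.25, with 8 of 9 genes lower in hDISC1AA/+, none past the test, and an interval within 2-fold for 4 of 9. Their mean deviation on the log2 scale was -0.27, -0.30, 0.41 and -0.23 in hDISC1AA/+, against 0.67, -0.07 and -0.21 in WT. WT replicate 1 was thus the highest library, and how far the order of the 4 roles rested on it was not tested. Arc, whose protein drives removal of AMPA receptors from synapses and whose mRNA travels to active dendrites, lies on chromosome 15 (74669083 to 74672570, minus strand, GRCm38). It had 11913, 5749, 15581 and 12648 normalized counts in hDISC1AA/+, against 18634, 12006 and 9384 in WT. The unnumbered library held 0.43 of the mean of the other 3 hDISC1AA/+ libraries, the lowest such ratio of the 40 genes, while WT replicate 1 was the highest library. The means were 11473 ± 4132 in hDISC1AA/+ and 13341 ± 4767 in WT (SD, n = 4 and 3), and the log2 fold change was -0.25 (95% interval -1.07 to 0.58) with a limma adjusted p of 0.978. Nptx2, a pentraxin that gathers AMPA receptors on interneurons, had 2399, 2710.4, 7894 and 1863 normalized counts in hDISC1AA/+, against 6006, 2333 and 2271 in WT. Replicate 3 of hDISC1AA/+ and WT replicate 1 stood well above the other 5 libraries, which lay between 1863 and 2710.4. The log2 fold change was -0.02 (95% interval -1.30 to 1.26).

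Inhba, the activin beta A subunit, had 125, 211, 506 and 227 normalized counts in hDISC1AA/+, against 732, 234 and 223 in WT, with replicate 3 the highest hDISC1AA/+ library and WT replicate 1 the highest of all. Ptgs2, the inducible cyclooxygenase of excitatory neurons, had 452, 724, 1306 and 887 normalized counts in hDISC1AA/+, against 1818, 804 and 720.3 in WT. For both genes the same 2 libraries were at the top and hDISC1AA/+ replicate 1 at the bottom, and the log2 fold changes were -0.52 (95% interval -1.78 to 0.74) and -0.37 (95% interval -1.33 to 0.58). Scg2, the granin secretogranin, had 5962, 7852, 7157 and 7423 normalized counts in hDISC1AA/+, against 16994, 7878 and 7243 in WT. Except for WT replicate 1, all 6 libraries lay within 5962 to 7878. Its log2 fold change was -0.49 (95% interval -1.12 to 0.14) with a limma unadjusted p of 0.114, and -0.10 without WT replicate 1. Rheb, the GTPase that activates mTOR, had 3364, 4206, 4572 and 4036 normalized counts in hDISC1AA/+, against 6401, 4403 and 3989.6 in WT. WT replicate 1 was again the highest, and the other 6 libraries lay between 3364 and 4572. The log2 fold change of Rheb was -0.26 (95% interval -0.65 to 0.13), and -0.06 without WT replicate 1. Vgf, a neuropeptide precursor, had 7886 to 16459 normalized counts, and the polo-like kinases Plk2 and Plk3 had log2 fold changes of -0.14 and 0.20. Plk3, the one gene of the 9 with a higher mean in hDISC1AA/+, shares exon sequence with Tctex1d4 on the opposite strand.

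The feedback and growth control genes held 2 of the 3 genes with an unadjusted p under 0.05 (8 of 12 lower, median log2 fold change -0.08), and their median SD of 0.307 was the smallest of the 4 roles. Dusp4, a nuclear phosphatase that removes phosphate from ERK, lies on chromosome 8 (34807297 to 34819894, plus strand, GRCm38). It had 630.4, 525, 634 and 406 normalized counts in hDISC1AA/+, against 855, 729 and 746 in WT. The highest hDISC1AA/+ value was below the lowest WT value. The means were 549 ± 108 in hDISC1AA/+ and 777 ± 68.2 in WT (SD, n = 4 and 3), and the log2 fold change was -0.52 (95% interval -0.90 to -0.14). Its limma unadjusted p was 0.0131, its adjusted p 0.974 and its exact permutation p 0.0571 (two-sided). In all 17 alternative settings Dusp4 was lower in hDISC1AA/+, by a log2 fold change of -0.60 to -0.38, with an unadjusted p of 0.0025 to 0.0429 and an adjusted p of 0.392 to 1.0. All these settings reuse the same libraries, in which Dusp4 had the smallest unadjusted limma p of the immediate early genes. They are therefore not independent support. Dusp6, the cytoplasmic ERK phosphatase, had 3567, 2674, 4489 and 3282 normalized counts in hDISC1AA/+, against 5093, 4752 and 3979 in WT. Replicate 3 of hDISC1AA/+ lay above WT replicate 3, so the genotypes overlapped. Its log2 fold change was -0.41 (95% interval -0.80 to -0.03), with a limma unadjusted p of 0.0386 and adjusted p of 0.974. The unadjusted p stayed under 0.05 in 11 of 17 alternatives. It was 0.122 without WT replicate 1, 0.096 without WT replicate 2, 0.0942 without the unnumbered library, 0.0805 without hDISC1AA/+ replicate 4, 0.161 with weights per library and 0.144 without WT replicate 1 and hDISC1AA/+ replicate 1 together.

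Dusp1, a phosphatase that acts on p38 and JNK as well as ERK, had nearly equal means in the genotypes, 1994 ± 694 in hDISC1AA/+ and 1884 ± 425 in WT (SD, n = 4 and 3). The libraries held 2184, 1038, 2060.2 and 2695 normalized counts in hDISC1AA/+, against 2363, 1738 and 1552 in WT. Its log2 fold change was 0.02 (95% interval -0.68 to 0.73) with a limma adjusted p of 0.998, and its exons overlap those of Ergic1 on the opposite strand. Ier2, a small nuclear protein, had 477, 282, 469 and 563 normalized counts in hDISC1AA/+, against 578, 332 and 394 in WT. Btg2, an antiproliferative adaptor of mRNA decay, had 1156, 756, 1355 and 2493 normalized counts in hDISC1AA/+, against 1596, 1053 and 1221 in WT. For both, hDISC1AA/+ held the highest or next-highest library as well as the lowest, and the log2 fold changes were 0.04 (95% interval -0.56 to 0.63) and 0.04 (95% interval -0.78 to 0.87). The stress and demethylation factors Gadd45b and Gadd45g, the MAPK phosphatase Dusp5, the RAS-ERK inhibitors Spry2 and Spry4, the pseudokinase Trib1 and the nuclear factor Ier5 had log2 fold changes from -0.20 for Spry4 to 0.03 for Gadd45b. Their unadjusted p was 0.205 or more, and exons of Dusp5 overlap the antisense gene AC137853.2.

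The same few libraries were at the ends for most genes. WT replicate 1 was the highest of the 3 WT libraries for 33 of 40 genes (41.8% of all genes tested) and the highest of all 7 for 21 (28.2%). Within WT, replicate 3 was the lowest for 23 (27.4%). The unnumbered hDISC1AA/+ library was the lowest of all 7 for 20 genes (12.5% of all genes tested), the lowest of the 4 hDISC1AA/+ libraries for 26 (21.6%), and the highest of all 7 for 0 (14.6%). Of the 13 canonical genes 12 were lowest there, and Egr3 was lowest in hDISC1AA/+ replicate 4. Its level relative to the mean of the other 3 hDISC1AA/+ libraries had a median of 0.717 over the 40 genes, from 0.43 for Arc to 1.15 for Scg2. It was below 1 for 38 of 40 genes, against 49.2% of all genes tested, with Scg2 and Rheb as the exceptions. Replicate 3 was the highest of the 4 hDISC1AA/+ libraries for 22 genes (20.2%). As a median deviation from each gene's mean over 7 libraries (log2 scale), the 40 genes stood at -0.03, -0.39, 0.21 and -0.07 in hDISC1AA/+, against 0.43, -0.03 and -0.11 in WT, while the median of all genes stayed within 0.021 of 0 in every library. These counts describe 7 libraries and were chosen after the values were seen.

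**Figure D4:**
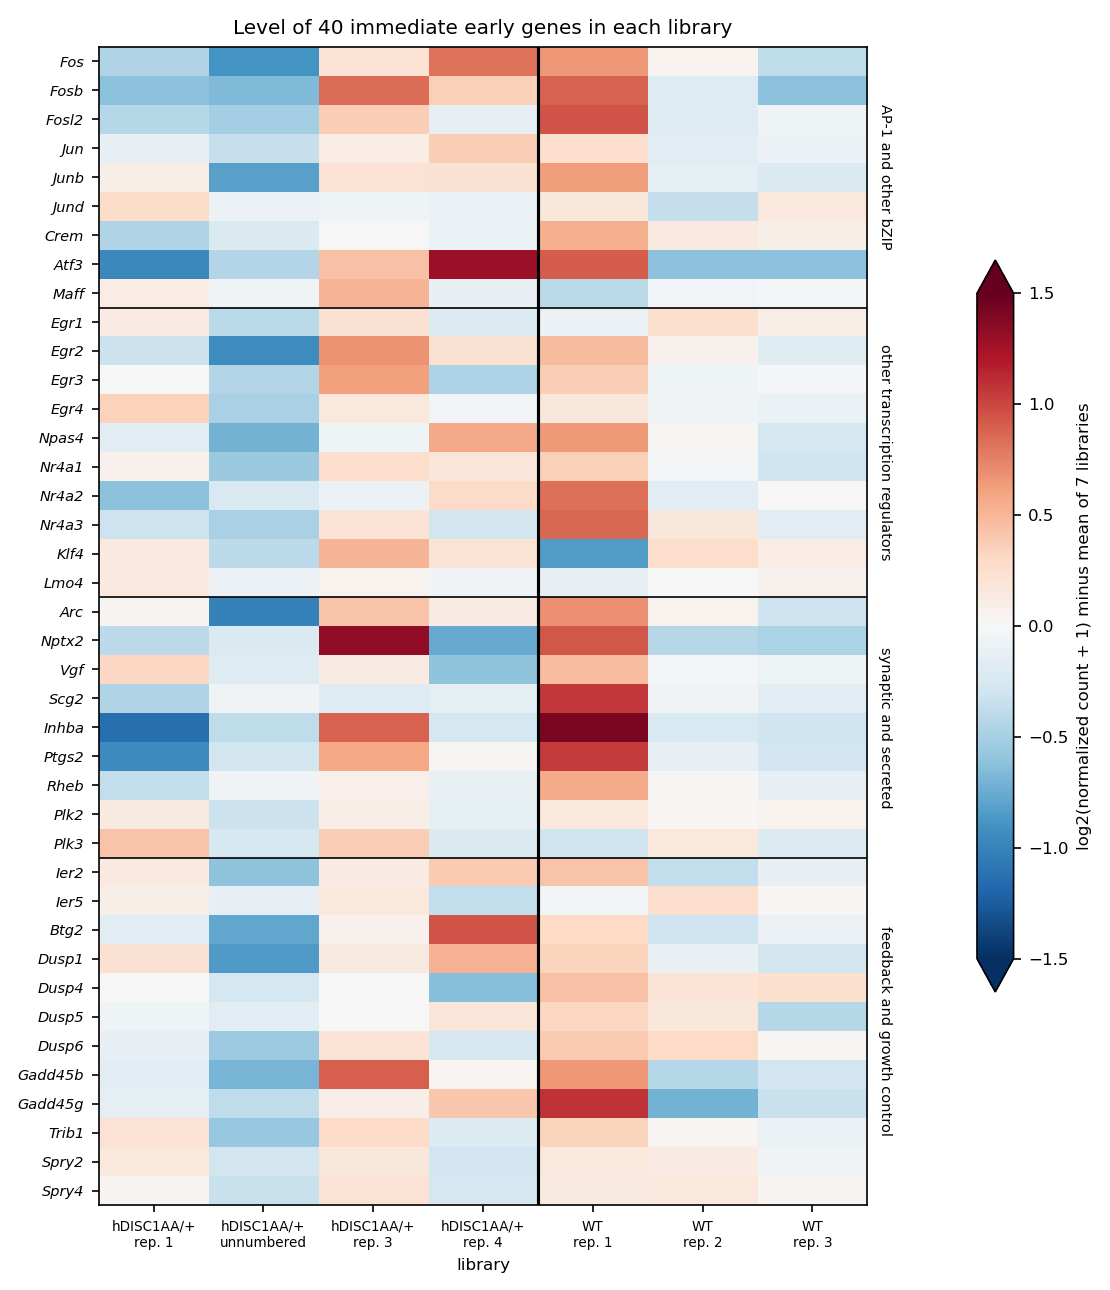
Deviation of each of the 40 genes from its mean over the 7 libraries, on the log2(normalized count + 1) scale, with hDISC1AA/+ libraries left of the line and WT right of it and genes grouped by role. The unnumbered hDISC1AA/+ column is mostly blue (low) and the WT replicate 1 column mostly red (high), with Klf4, Plk3 and Maff among its exceptions.

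Replicates 3 and 4 of hDISC1AA/+ differed in which genes were high. In hDISC1AA/+ replicate 3 relative to replicate 4, at a threshold of 1.5-fold chosen after the values were seen, 8 of 40 genes were higher (20%, against 5.43% of all genes tested). They were Nptx2 (4.24-fold), Inhba (2.22-fold), Egr3 (2.11-fold), Gadd45b, Vgf, Maff, Dusp4 and Plk3. The other way round, replicate 4 was at least 1.5-fold above replicate 3 for 4 genes (10%, against 6% of all genes): Btg2 (1.84-fold), Atf3 (1.81-fold), Npas4 (1.55-fold) and Fos (1.52-fold). Thus 2 libraries of 1 genotype ordered Fos and Npas4 one way and Egr3, Nptx2 and Inhba the other. With 1 library on each side there is no replicate check of these ratios.

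**Figure D5:**
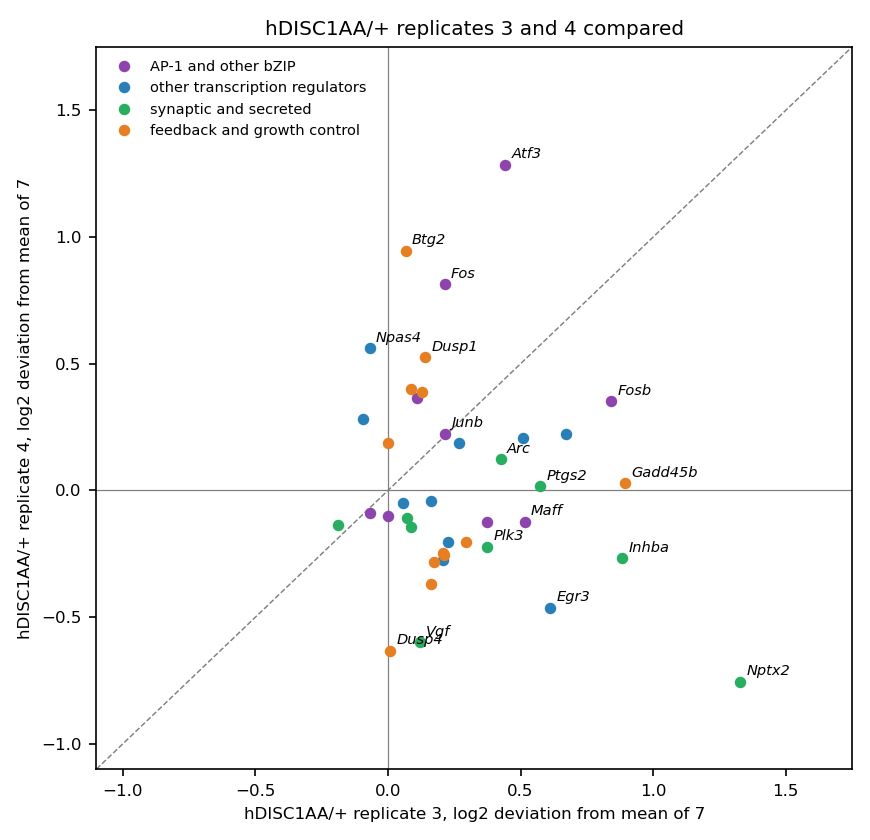
Deviation of the 40 genes from their mean over 7 libraries (log2 scale) in hDISC1AA/+ replicate 3 (horizontal axis) and replicate 4 (vertical axis), coloured by role. Nptx2, Inhba and Egr3 lie far below the line of equal deviation, and Atf3, Btg2 and Fos far above it.

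Marker lists also differed between libraries, and which libraries were at the ends varied with the list. The summed normalized count of 9 oligodendrocyte markers was 40459 to 47253 in hDISC1AA/+, against 42679 to 140888 in WT, with WT replicate 1 at the top. That of 12 endothelial and mural markers was 13277 to 16629.9 in hDISC1AA/+, against 5751 to 16473 in WT, with WT replicate 1 at the bottom. The 5 olfactory bulb markers summed to 799 to 7910.0 in hDISC1AA/+ (lowest in replicate 1, highest in the unnumbered library), against 1368 to 5034 in WT. The 7 markers of excitatory neurons, in which many of these genes are induced by activity, were all above 0 in every library. They summed to 267383 to 360747 in hDISC1AA/+ (lowest in the unnumbered library, highest in replicate 1), against 288152 to 337003 in WT. The 6 markers of inhibitory neurons summed to 22092 to 37934 in hDISC1AA/+ (lowest in replicate 1), against 28436 to 34410 in WT. As a mean deviation on the log2 scale, the excitatory list stood at 0.15, -0.19, 0.05 and -0.11 in hDISC1AA/+, against 0.01, 0.04 and 0.05 in WT. The same mean over the 13 canonical genes was -0.05, -0.70, 0.30 and 0.28 in hDISC1AA/+, against 0.45, -0.06 and -0.21 in WT. No marker of these lists was at 0 in any library. The part of cell composition and dissection in the levels of the immediate early genes was not tested.

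Genes of the pathway that leads from synapse to nucleus varied less between libraries than the 40 genes did, with a median SD of 0.173 against 0.412. The median over all genes tested was 0.231. This comparison was not matched for mean level and was not tested. Of 39 genes of that list (CREB and its coactivators, SRF and MEF2 factors, calcium-dependent kinases and the RAS-ERK cascade), 21 were higher and 18 lower in hDISC1AA/+, 0 reached an unadjusted p under 0.05, and the median log2 fold change was 0.0077. The smallest p belonged to the ERK-dependent kinase gene Rps6ka3 and the calmodulin-dependent kinase gene Camk4, with log2 fold changes of -0.38 and -0.31. Camk4 had 8002, 12184, 14225 and 13589 normalized counts in hDISC1AA/+, against 14484, 14146 and 14821 in WT; replicate 1 of hDISC1AA/+ was the lowest library for both, and the part of that library's other features in these values was not tested. Of 49 further activity-induced genes outside the 40, 13 were higher and 36 lower, with a median log2 fold change of -0.11 and a median SD of 0.344. The share lower was 52.2% over all genes tested. None passed the adjusted test, and 1 in each direction had an unadjusted p under 0.05, against 2.44% of all genes tested. As a mean deviation on the log2 scale, these 49 genes stood at -0.09, -0.20, 0.25 and -0.07 in hDISC1AA/+, against 0.27, -0.005 and -0.15 in WT. WT replicate 1 was again the highest library, and how far the count of lower genes rested on it was not tested. Pcsk1, a convertase that cuts neuropeptide precursors such as that of Vgf, had 1623, 1709, 2161 and 1436 normalized counts in hDISC1AA/+, against 2593, 2329 and 2014 in WT (log2 fold change -0.42, limma adjusted p 0.974). Klf2, a zinc finger factor also abundant in endothelium, had 426, 295, 525 and 459 normalized counts in hDISC1AA/+, against 147, 335 and 326 in WT (0.72, adjusted p 0.974), lowest in WT replicate 1 like the endothelial markers. Cebpb had a log2 fold change of 1.22 with an unadjusted p of 0.076.

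Per kilobase of annotated exon, the 40 genes spanned 18.7 (Atf3) to 4114 (Vgf) normalized counts as a mean over the 7 libraries. Vgf (2653 to 5536 over libraries), Egr1 (3025 to 4740), Lmo4 (3693 to 4453) and Arc (1881 to 6095) had the highest means, with Scg2 next at 3437 (2371 to 6757). The ranges of all 5 overlapped, so their order is not fixed by these data. Atf3, Maff (20.7) and Inhba (50.5) had the lowest means. Their ranges, 7.86 to 39.2 for Atf3, 15.3 to 29.2 for Maff and 19.5 to 115 for Inhba, overlapped as well.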

How the data were processed

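Bulk RNA sequencing of 7 prefrontal cortex libraries (4 hDISC1AA/+, 3 WT) was analysed. Per the labels' protocols, the tissue was frozen, its RNA was extracted with Trizol, and a NEBNext Ultra RNA kit was used for the libraries. The submitters' processing notes list, without role or order, the build mm10 and the tools HTSeq 0.6.1, DESeq2 1.26.0, Trimmomatic 0.39 and HISAT2 2.1.0. The authors deposited 1 signal value per gene and library. Within each column every value above 0 was a whole multiple of 1 step (100% of values, tolerance 0.01 reads), so the authors had divided read counts by 1 size factor per library, and multiplying back recovered the reads. Reads that match several places and the strand setting are not described in the sources used here.

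Symbols, exon lengths and positions came from GENCODE M21 (GRCm38), which matched 42459 of 43626 identifiers. 3 genes on broken lines, none of them described here, and 0 columns were left out. No 2 libraries were copies (chi-square per degree of freedom 11.5 to 177).

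The 17670 genes whose value was 10 or more in 3 or more libraries entered limma 3.58.1 (trend, robust, two-sided, R 4.3.3) on log2(normalized count + 1), with Benjamini-Hochberg adjustment over all of them. The calculation was tested on simulated data. edgeR 4.0.16 and DESeq2 1.42.0 on the recovered reads, other pseudocounts, filters and scalings, library weights, a correction for GC content and length, and left-out libraries were the alternatives. Values in every library are given for 13 canonical genes, the 6 genes with the smallest p and the 6 with the largest SD within genotypes; of each further list up to 3 genes with the smallest p are named. The 40 genes, the lists and this rule were chosen with earlier results of these data known. Promoter windows came from RefSeq tables, which hold 30 of the 40 genes.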

Additional observations from a re-analysis of the deposited data

Results flagged for a closer look

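In 40 groups of 4 hDISC1AA/+ libraries, 1 for each gene, 2 held a library whose gap to its nearest neighbour took up more than 0.829 of the group's range; chance alone gives about 1 in 20, which is the same number. Over all genes tested the share was 7.98%, against 5% of the 40. Jund, an AP-1 subunit of high basal expression, had 4222 normalized counts in hDISC1AA/+ replicate 1, against 3262 to 3312 in the other 3 hDISC1AA/+ libraries (gap over range 0.947), while WT held 3899.7, 2713 and 3874. Nptx2 had 7894 in hDISC1AA/+ replicate 3, against 1863 to 2710.4 in the other 3 (gap over range 0.860). WT replicate 1 held 6006, so the high value of Nptx2 had a counterpart in 1 WT library. The 3 WT libraries are too few for the same check.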

How the results depend on the processing

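No gene of the 40 passed the adjusted threshold under any of the 17 alternatives. The number with an unadjusted p under 0.05 was 3 (2.44% of all genes tested), and 5 with DESeq2 (2.13%), which added Nr4a3 and Scg2. With weights per library it was 3, Atf3, Crem and Dusp4, against 10.3% of all genes tested. With single libraries left out it was 1 to 5: 1 without WT replicate 1 (1.57% of all genes), 2 without the unnumbered library (1.25%), 2 without WT replicate 2 (4.997%) and 5 without WT replicate 3 (2.93%). The number lower in hDISC1AA/+ was 30. It became 36 after the correction for GC content and length (55.3% of all genes lower), 17 with weights per library (51.2%) and 18 without WT replicate 1 and hDISC1AA/+ replicate 1 together. With single libraries left out it was 18 to 35 (18 without the unnumbered hDISC1AA/+ library, 19 without WT replicate 1, 35 without WT replicate 2). The median log2 fold change was -0.26 to 0.04 over the left-out libraries, 0.09 with weights per library and -0.20 after that correction. The median SD within genotypes was 0.320 to 0.433 over the left-out libraries. For 13 genes the fold change kept its sign under every alternative: Maff was higher and 12 were lower, among them Dusp4, Crem, Dusp6, Nr4a3 and Scg2. Weights per library turned the sign of 17 genes and TMM scaling that of 1; the cause was not tested. Read depth limits Atf3 (16 to 101 reads) and Maff (47 to 70) most. No paired analysis was possible because the replicate numbers only count the records in turn and 1 column carries none, so nothing links libraries across genotypes.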

Other observations

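Lists of neighbouring biology had 0 genes past limma's adjusted threshold in each case. Over all genes tested 52.2% were lower in hDISC1AA/+. Of 16 glucocorticoid targets 2 were higher and 14 lower in hDISC1AA/+ (median log2 fold change -0.20, 0 with an unadjusted p under 0.05). Their mean deviation on the log2 scale was -0.05, -0.12, 0.12 and -0.27 in hDISC1AA/+, against 0.57, -0.21 and -0.03 in WT. WT replicate 1 was thus the highest library for this list, and how far the count of lower genes rested on it was not tested. Tsc22d3, a leucine zipper gene induced by glucocorticoids, had 1547, 1817, 1863 and 1448 normalized counts in hDISC1AA/+, against 3270.1, 1719.8 and 1763 in WT, so that WT replicate 1 stood apart from the other 6 libraries. Fkbp5, a co-chaperone of the glucocorticoid receptor, had 1349, 999, 1372 and 804 in hDISC1AA/+, against 2149, 1061 and 1216 in WT, with WT replicate 1 again the highest. Of 17 clock genes 7 were higher and 10 lower (median -0.0068, 0 unadjusted). Clock had 1926, 3129, 3339 and 3562 normalized counts in hDISC1AA/+, against 3916, 3899 and 3807 in WT, lowest in hDISC1AA/+ replicate 1, the library with 1.94% mitochondrial reads (log2 fold change -0.41, unadjusted p 0.065). Of 8 heat shock genes 2 were higher and 6 lower (median -0.04, 0 unadjusted). Sult1a1 among the glucocorticoid targets, Ciart and Rora among the clock genes, and Hsp90aa1, Hsph1 and Bag3 among the heat shock genes had log2 fold changes from -0.30 to 0.30. What was common to the libraries at the ends was not tested.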
